A study of Mus musculus and Bos taurus with 6 samples.

Results

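The family of miR-34 and miR-449 was described in small RNA from lactating mammary glands of mouse and cow. Members were taken by name, as every listed row of miR-34a, miR-34b, miR-34c, miR-449a, miR-449b or miR-449c in either species, with both arms of each hairpin. This gave 12 rows of 3289, of which 8 were among the 1750 rows of the mouse list and 4 among the 1539 rows of the bovine list. The mouse rows held the 5p and the 3p miRNA of mir-34a, mir-34b, mir-34c and mir-449a, and the bovine rows held only the 5p miRNA of the same hairpins. miR-449b and miR-449c were not analysed here.

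Each group had 2 libraries. The mouse libraries were made from total RNA of the abdominal mammary gland, freed of its lymph node, of FVB/N mice in their first lactation at day 12. The AGO2 libraries came from mammary tissue of the same strain and day, after co-immunoprecipitation with a monoclonal antibody to Argonaute 2 (AGO2), the protein that carries a miRNA to its target. The study used 2 mice, and the labels do not tie a mouse or an AGO2 library to either of them. The bovine libraries were each made from a pool of biopsies of 2 Holstein cows in mid-lactation, all fed the low forage diet. All samples were whole tissue, and the labels name no transgene or drug. RNA was extracted with a different kit in each species, so that species, kit and pooling change together and cannot be told apart.

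A miRNA is cut from a hairpin precursor that yields a 5p and a 3p strand, of which usually only the more abundant is retained by an Argonaute protein. Bases 2 to 8 of the mature miRNA, the seed, pair with the target mRNA, so miRNA with the same seed can act on overlapping targets. The miR-34 genes are known as direct transcriptional targets of p53, and miR-34a lowers cell cycle and anti-apoptotic proteins. In adult tissues miR-34a is widely found, whereas miR-34b, miR-34c and miR-449 are best known from multiciliated epithelia and testis.

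The mature sequences are given 5′ to 3′ as the deposited lists spell them, with T for U, since the family is defined by them. The seed is in capitals.
mmu-miR-34a-5p: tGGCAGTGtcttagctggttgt
mmu-miR-34b-5p: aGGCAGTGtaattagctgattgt
mmu-miR-34c-5p: aGGCAGTGtagttagctgattgc
mmu-miR-449a-5p: tGGCAGTGtattgttagctggt
mmu-miR-34a-3p: aATCAGCAagtatactgccct
mmu-miR-34b-3p: aATCACTAactccactgccatc
mmu-miR-34c-3p: aATCACTAaccacacagccagg
The 4 mouse 5p miRNA shared the seed GGCAGTG, and no other row of the mouse list had it. Outside the seed they fell into pairs. Counted from 1 at the 5′ end of miR-34b-5p, miR-34c-5p differed at 2 of 23 positions (A11G and T23C), whereas miR-34a-5p and miR-34b-5p differed at 11 of the 22 positions compared. Reads trimmed before the last base would tell miR-34b-5p from miR-34c-5p by position 11 alone, and their separate counts are therefore less certain than their sum. The bovine miR-34a-5p and miR-449a-5p were identical to those of mouse, and bovine miR-34b-5p and miR-34c-5p were each listed 1 base shorter at the 3′ end and were otherwise identical. Of the 3p miRNA, miR-34b-3p and miR-34c-3p shared the seed ATCACTA, and miR-34a-3p had another.

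The hairpins from which these miRNA are cut were taken from RefSeq (build GRCm38.p6), in which 4 of 4 mouse hairpins were found. They are shown with both mature arms in capitals, because the comparison of arms rests on them.
mir-34a: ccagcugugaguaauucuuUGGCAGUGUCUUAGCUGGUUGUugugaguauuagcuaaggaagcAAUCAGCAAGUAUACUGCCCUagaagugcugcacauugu
mir-34b: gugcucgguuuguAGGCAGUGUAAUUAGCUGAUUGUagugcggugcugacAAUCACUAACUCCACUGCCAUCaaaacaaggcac
mir-34c: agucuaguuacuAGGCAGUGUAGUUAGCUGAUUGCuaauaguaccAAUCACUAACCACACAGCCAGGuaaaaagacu
Mir34a lies on the plus strand at chr4:150068454-150068555, within an exon of Gm37795, an unverified transcript on the same strand. Mir34b (chr9:51103562-51103645) and Mir34c (chr9:51103034-51103110) lie on the minus strand with their starts 528 bases apart, inside an intron of Btg4, which is on the other strand. Mir449a lies on the plus strand at chr13:113037534-113037624, in an intron of Cdc20b on the same strand. The family therefore comes from 3 chromosomes in mouse, with miR-34b and miR-34c side by side.

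The libraries held 8391916 to 9299807 counts in mouse, 3909166 to 5041406 in AGO2 and 9402483 to 10613807 in bovine. Levels are given in RPM, the counts of a miRNA scaled to the sum of its library, for which the limit that a count of 0 allows (3 counts) was 0.283 to 0.767. Limits and 95% intervals cover counting error only, because reads without molecular identifiers are not independent molecules. The paper states that the 2 AGO2 libraries came from 2 animals. Which animal lies behind each mouse or AGO2 library is not given, so no pairing was made. The p-values measure only the spread between these libraries, in which differences of animals and of technique cannot be told apart. The 2 AGO2 libraries correlated less (Pearson r = 0.640 over 806 miRNA, log2 scale) than the 2 mouse (r = 0.966 over 481) or the 2 bovine libraries (r = 0.989 over 563), and no pair was a duplicate. Each group was taken over its own rows with at least 20 summed counts, so the sets differ. The chi-square per degree of freedom was 1699 in mouse, 435 in AGO2 and 271 in bovine. It grows with the counts per row, which differ between the groups, so it does not rank the pairs. The tissue label was checked against epithelial miRNA (the miR-200 group, miR-141 and miR-205), of which 5 of 5 were above the limit in each library. Their summed level was 155444 and 181734 RPM in mouse, 334535 and 365137 in AGO2 and 76764 and 78565 in bovine. The markers did not move together. In AGO2 miR-200a-3p and miR-141-3p were higher than in mouse in both libraries and miR-200b-3p and miR-200c-3p were lower, and in bovine miR-200c-3p and miR-205-5p were higher than in mouse although the sum was lower. Erythroid miRNA summed to 6451 to 12837 RPM in mouse, 15228 to 31402 in AGO2 and 868 to 1454 in bovine. Of the muscle miRNA, which summed to 163 and 213 RPM in mouse, 27.9 and 70.2 in AGO2 and 727 and 782 in bovine, 1 of 3 was at or under the limit in mouse sample 2 and in both AGO2 samples. Leukocyte, endothelial and stromal miRNA were above the limit in each library. The part of these differences between the groups in the results was not tested.

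miR-34a-5p carried most of the family's reads in the mouse gland, miR-34b-5p and miR-34c-5p were over 10-fold lower and close to each other, and miR-449a-5p stayed under 5 RPM. miR-34a-5p counted 14761 reads (1587 RPM, rank 68 of the list) in mouse sample 1 and 16176 (1928 RPM, rank 59) in sample 2, a mean of 1757 ± 241 RPM (SD, n = 2). miR-34b-5p had 1276 and 974 counts, or 137 and 116 RPM (127 ± 15). miR-34c-5p had 1219 and 741 counts, or 131 and 88.3 RPM (110 ± 30.2). The values of miR-34b-5p and miR-34c-5p overlapped between the libraries, but within each library miR-34b-5p was the higher of these neighbours from 1 locus. The difference between them was not tested. The ratio of miR-34b-5p to miR-34c-5p was 1.05 (95% interval 0.967 to 1.13) in sample 1 and 1.31 (1.19 to 1.45) in sample 2. miR-449a-5p, cut from a locus in the ciliation-linked Cdc20b gene, had 24 and 37 counts (2.58 and 4.41 RPM). At least 100 RPM in a library was reached by 3 of the 8 mouse rows, all of them 5p.

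The mouse 3p miRNA were low in each library. miR-34a-3p had 4 and 8 counts (0.430 and 0.953 RPM). miR-34b-3p had 33 counts in sample 1 and 4 in sample 2 (3.55 and 0.477 RPM), and miR-34c-3p had 47 and 7 (5.05 and 0.834 RPM). For both miRNA of chromosome 9 the mouse samples thus lay 7.44-fold and 6.06-fold apart, while their 5p partners lay 1.18-fold and 1.48-fold apart. miR-449a-3p had 0 and 2 counts, and 0 in both AGO2 libraries, and is not described further.

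**Figure D1:**
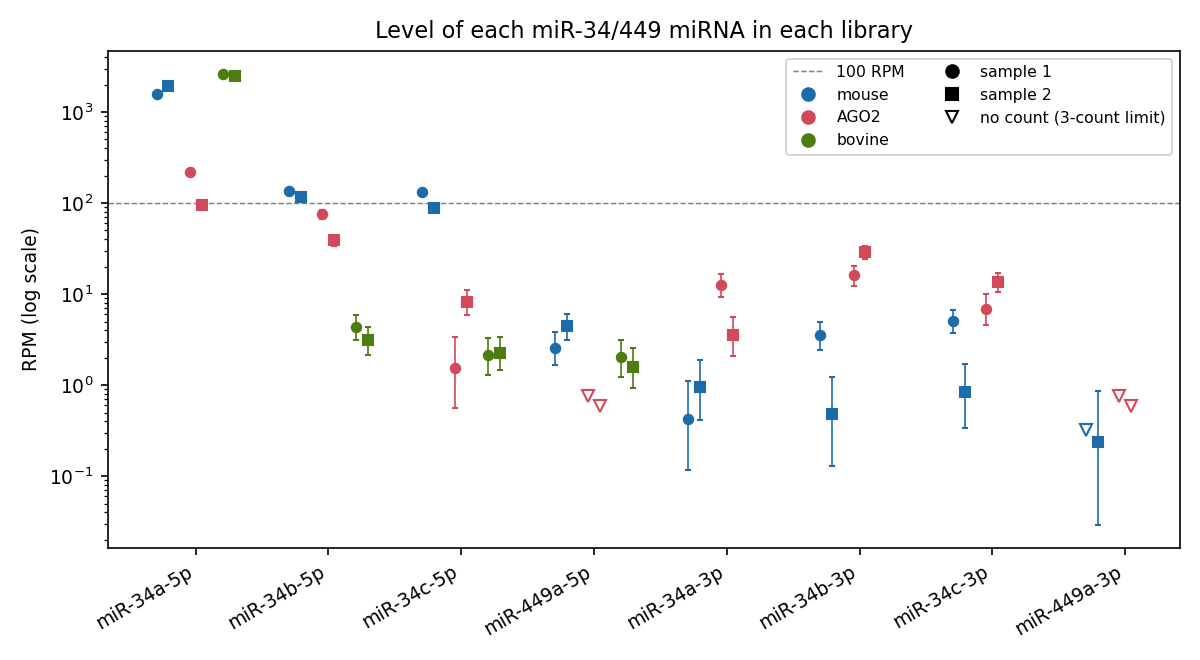
Level of each miRNA of the family in RPM (log axis) in each of the 6 libraries, with circles for sample 1, squares for sample 2, bars for the exact Poisson 95% interval of the count and open triangles for the 3-count limit where no read was counted. miR-34a-5p sits at 1587 to 2630 RPM in the mouse and bovine libraries and at 221 and 96.4 RPM in AGO2, whereas the 3p miRNA of mir-34a, mir-34b and mir-34c sit higher in AGO2 than in mouse.

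In the AGO2-miRNome the family was lower and differently made up. The 5p miRNA together had 298 and 143.6 RPM, against 1858 and 2136 RPM in the mouse miRNome, and the AGO2 libraries lay below both mouse libraries. miR-34a-5p had 865 counts (221 RPM) in AGO2 sample 1 and 486 (96.4 RPM) in sample 2, a mean of 159 ± 88.3 RPM (SD, n = 2). miR-34b-5p had 295 and 197 counts, or 75.5 and 39.1 RPM (57.3 ± 25.7). miR-34c-5p had 6 and 41 counts, or 1.53 and 8.13 RPM. These are few reads, and the exact Poisson 95% interval ran from 0.563 to 3.34 RPM in sample 1 and from 5.84 to 11.0 RPM in sample 2. miR-449a-5p had no count in either AGO2 library. Set against 3 counts in each of them, its mouse mean of 3.49 RPM was 5.13-fold higher. This value leaves out the counting error of its 24 and 37 mouse reads. In a fit over all 1750 rows, where 1.94% were called lower, its log2 fold change was -7.53 ± 7.27 (SE, edgeR adjusted p = 0.514). That is not a call. All 4 of the 5p miRNA were thus lower in both AGO2 libraries than in both mouse libraries. In normalised CPM so were 39.8% of the 299 miRNA tested for this comparison, to which miR-449a-5p did not belong.

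AGO2 was compared with mouse with the quasi-likelihood F test of edgeR and Benjamini-Hochberg adjustment over the 299 miRNA with at least 176 counts in a library. Only 3 of the 8 mouse rows passed this filter, namely the 5p miRNA of mir-34a, mir-34b and mir-34c. Over all 299 miRNA, 12.4% were called lower at an adjusted p under 0.05 and 15.4% higher (27.8% in either direction), with a median log2 fold change of -0.12. miR-34a-5p fell by 3.34 ± 0.67 on the log2 scale (SE, edgeR adjusted p = 0.00101), the 14th lowest of 299. miR-34c-5p fell by 4.29 ± 0.98 (edgeR adjusted p = 0.00237), the 8th lowest. Without mouse sample 1 its log2 fold change was -4.03 with an adjusted p of 0.0927, which is not a call. miR-34b-5p had a log2 fold change of -1.01 ± 0.67 (edgeR adjusted p = 0.257) and was not called. Of all 299 miRNA, 39.8% had both AGO2 libraries below both mouse libraries, as these 3 did. The number of miRNA called lower was 37, and it was 21 of 286 without mouse sample 1 and 23 of 292 without AGO2 sample 1. The left-out fits have a group of 1 library, which is assumed to vary as the other group does. A fall here is a lower share of the reads of the precipitate than of the reads of total RNA. No change of cells or of RNA in the gland was measured by it.

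**Figure D2:**
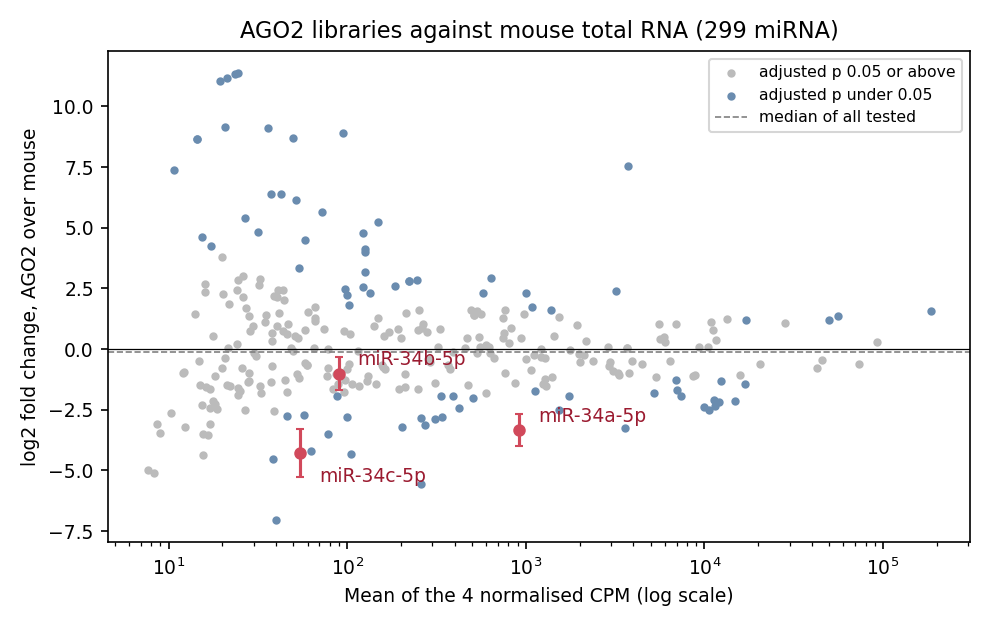
log2 fold change of AGO2 over mouse (vertical axis) against the mean of the 4 normalised CPM (log axis) for the 299 miRNA tested, with the called miRNA in blue, the 3 tested family members in red with bars of 1 SE, and the median as a dashed line. miR-34a-5p (-3.34) and miR-34c-5p (-4.29) lie near the lower edge of the cloud and miR-34b-5p (-1.01) lies within it.

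The 3 members have 1 seed but had log2 fold changes from -4.29 to -1.01, and the make-up of the 5p reads differed between the groups. miR-34a-5p made up 85.4% and 90.2% of the family's 5p counts in mouse and 74.2% and 67.1% in AGO2. miR-34b-5p made up 7.38% and 5.43% of these counts in mouse and 25.3% and 27.2% in AGO2. How many miRNA of other seeds shift their share to this extent was not counted. miR-34c-5p made up 7.05% and 4.13% in mouse and 0.515% and 5.66% in AGO2, where the second library lay between the mouse values. The near-identical pair of chromosome 9 had a ratio of miR-34b-5p to miR-34c-5p of 49.2 (95% interval 22.3 to 135) in AGO2 sample 1 and 4.80 (3.42 to 6.90) in sample 2. Both intervals lie above those of the mouse samples, and the AGO2 samples also lay apart from each other.

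Whether a member changed by another factor than the miRNA with the same seed was tested with diffSpliceDGE of edgeR over 113 miRNA that share a seed with another tested miRNA, of which 1.77% were called. miR-34b-5p stood 2.04 above the other members on the log2 scale, with an unadjusted edgeR p of 0.0111 and an adjusted p of 0.312, which is not a call. miR-34a-5p stood at -0.30 and miR-34c-5p at -1.24, both with an edgeR adjusted p of 1. The value of miR-34c-5p rested on the AGO2 libraries taken. It was 0.057 without AGO2 sample 1 (edgeR adjusted p = 1.00), and -3.38 without AGO2 sample 2 (adjusted p = 0.0489), which is a call at a setting where 4 of 108 miRNA were called.

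**Figure D3:**
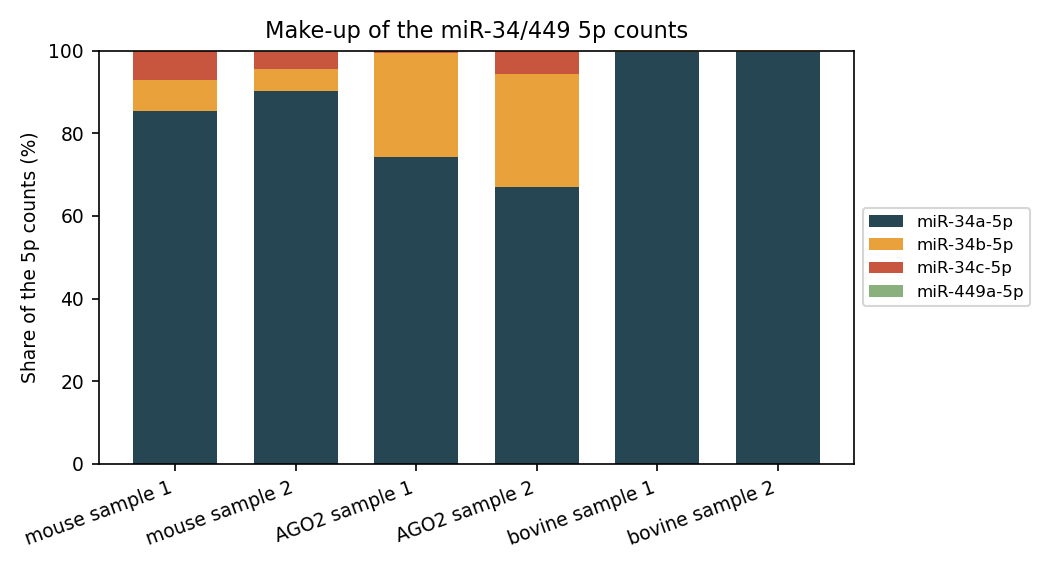
Share of each 5p miRNA in the family's 5p counts (vertical axis, percent) in each of the 6 libraries. miR-34b-5p takes 25.3% and 27.2% in AGO2 against 5.43% to 7.38% in mouse, and miR-34a-5p takes 99.7% in both bovine libraries.

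The 3p miRNA of mir-34a, mir-34b and mir-34c were higher in RPM in AGO2 than in mouse. miR-34a-3p had 49 and 18 counts (12.5 and 3.57 RPM) against 4 and 8 in mouse. miR-34b-3p had 63 and 146 counts (16.1 and 29.0 RPM) against 33 and 4. miR-34c-3p had 27 and 68 counts (6.91 and 13.5 RPM) against 47 and 7, so that AGO2 sample 1, the smaller library, had fewer reads of it than mouse sample 1. For each of these 3p miRNA both AGO2 libraries lay above both mouse libraries in RPM, as did 17.3% of the 1112 rows with at least 10 counts in a library. miR-34a-3p reached 10 counts in the AGO2 libraries alone. Summed, the 3p rows had 9.03 and 2.50 RPM in mouse and 35.6 and 46.0 RPM in AGO2. As a share of all family counts, 3p reads were 0.484% (95% interval 0.386 to 0.599) and 0.117% (0.0724 to 0.179) in mouse and 10.7% (9.03 to 12.5) and 24.3% (21.6 to 27.1) in AGO2. None of the 3p rows passed the filter on counts. In a fit over all 1750 rows, where 1.66% were called higher and 1.94% lower, the log2 fold change was 3.45 for miR-34a-3p (edgeR adjusted p = 0.579), 3.45 for miR-34b-3p (0.514) and 1.78 for miR-34c-3p (0.685), and none was called or had an unadjusted p under 0.05. The median of all rows in that fit was 2.82.

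The share of the 3p arm in each of these hairpins is given per library and is not read as setting them apart. How many of all hairpins have both AGO2 shares above both mouse shares was not counted. A larger fold change of the 3p than of the 5p arm was found in 79 of 108 hairpins whose 5p arm is the more abundant. For mir-34a the 3p share was 0.0271% and 0.0494% in mouse and 5.36% (95% exact binomial interval 3.99 to 7.03) and 3.57% (2.13 to 5.59) in AGO2. For mir-34b it was 2.52% and 0.409% in mouse and 17.6% (13.8 to 21.9) and 42.6% (37.3 to 48.0) in AGO2. For mir-34c it was 3.71% and 0.936% in mouse and 81.8% (64.5 to 93.0) and 62.4% (52.6 to 71.5) in AGO2, so that the 3p arm was the more abundant in both AGO2 libraries and the 5p arm in both mouse libraries. In mouse total RNA, mir-34a had the lowest 3p share of the 3 hairpins in both samples, followed by mir-34b and mir-34c, and both AGO2 samples had the same order.

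The difference of the 3p and the 5p fold change was tested with diffSpliceDGE of edgeR over 162 hairpins with at least 10 counts for each arm in a library. The 3p arm was called as rising over the 5p arm in 13% of them and the 5p arm over the 3p arm in 4.94%. The median difference over all 162 was 1.33 on the log2 scale, and over the 108 hairpins whose 5p arm is the more abundant it was 1.75, with a value above 0 in 79 of them. A larger fold change of the lesser arm was thus common in the list. The difference was 6.18 for mir-34c (12th highest of 162) and 4.65 for mir-34b (26th). It was 6.97 for mir-34a, whose 3p arm passed the filter only through the AGO2 libraries, where it is high. Neither its place in the list nor its test is therefore read. The edgeR adjusted p was 0.0596 for mir-34c and 0.0596 for mir-34b. Neither was called, while both had an unadjusted p under 0.05. With at least 50 counts for each arm, 29.9% of the hairpins were called and mir-34a was not tested. The 3p arms of mir-34b and mir-34c passed that filter only through AGO2, where they are high, so their tests at that setting are not read. With a library left out, 1 group has a single library, so only the size of the difference is given. For mir-34c it was 5.96 without AGO2 sample 1 and 7.38 without AGO2 sample 2, and for mir-34b 5.55 and 3.75. Without mouse sample 1 it was 7.71 for mir-34c and 6.62 for mir-34b, and without mouse sample 2 it was 5.71 and 4.02. Whether these hairpins were called changed with the library left out.

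**Figure D4:**
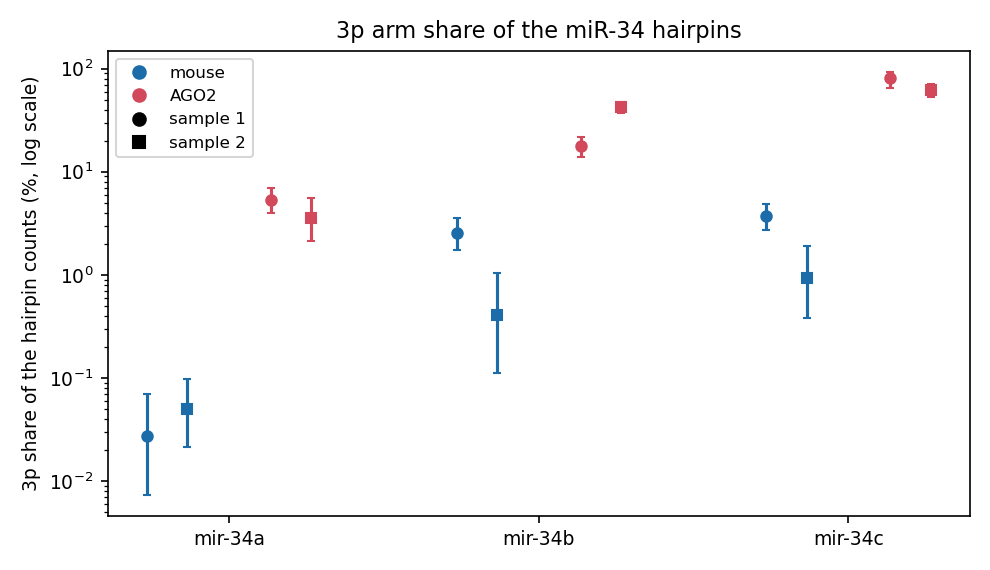
Share of the 3p arm in the counts of each miR-34 hairpin (log axis, percent) in the mouse and AGO2 libraries, with exact binomial 95% intervals. The 3p share of mir-34c is 0.936% and 3.71% in the mouse libraries and 62.4% and 81.8% in the AGO2 libraries. The AGO2 libraries lie above the mouse libraries for each hairpin shown, and how many of all hairpins separate in this way was not counted.

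In the bovine gland miR-34a-5p had a mean RPM 1.46-fold that of mouse, whereas the other members stayed under 5 RPM. miR-34a-5p had 24725 counts (2630 RPM, rank 54) in bovine sample 1 and 26548 (2501 RPM, rank 52) in sample 2, a mean of 2565 ± 90.8 RPM (SD, n = 2). miR-34b-5p had 41 and 33 counts, or 4.36 and 3.11 RPM, and miR-34c-5p had 20 and 24, or 2.13 and 2.26 RPM. miR-449a-5p had 19 and 17 counts, or 2.02 and 1.60 RPM. miR-34a-5p thus made up 99.7% of the family's 5p counts in each bovine library, and the other members stood at most at 0.165%. Between miR-34b-5p (3.73 ± 0.885 RPM) and miR-34c-5p (2.19 ± 0.0948) the libraries did not overlap, but the counting intervals did. The same was true of miR-34c-5p and miR-449a-5p (1.81 ± 0.296). The ratio of miR-34b-5p to miR-34c-5p was 2.05 (95% interval 1.17 to 3.69) in sample 1 and 1.38 (0.788 to 2.43) in sample 2, and both intervals overlapped that of mouse sample 2, whereas only the second overlapped that of mouse sample 1.

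Bovine was compared with mouse over 139 miRNA of the same name and arm with at least 100 RPM in a library, of 229 that matched. At an edgeR adjusted p under 0.05, 25.9% of the 139 were lower in bovine and 29.5% were higher (55.4% in either direction), and the median log2 fold change was 0.21. Called miRNA are therefore common in this comparison, and being called sets a member apart from few others. miR-34c-5p fell by 5.77 ± 0.48 on the log2 scale (SE, edgeR adjusted p = 0.000748), the 5th lowest of 139. miR-34b-5p fell by 5.23 ± 0.45 (edgeR adjusted p = 0.000748), the 6th lowest. In RPM their means were 50.0-fold and 33.9-fold lower than in mouse. miR-34a-5p had a log2 fold change of 0.40 ± 0.30 (edgeR adjusted p = 0.303) and was not called, although both bovine libraries lay above both mouse libraries, as they did for 46.8% of the 139 miRNA. Its direction depended on the filter, with -0.092 when all 229 matched miRNA were fitted (adjusted p = 0.827), and it was a call of 0.52 without mouse sample 2 (adjusted p = 0.0303), where 103 of 136 miRNA were called. miR-449a-5p did not reach 100 RPM, and in the fit of 229 it had a log2 fold change of -1.59 (edgeR adjusted p = 0.0755), where 30.1% were called lower. Leaving out a bovine library left 48 of 139 miRNA called without sample 1 and 49 without sample 2, against 77 with both. The sequences of miR-34b-5p and miR-34c-5p in the lists differ between the species by the 1 missing base given above. In whole tissue, fewer cells of a type and less RNA per cell cannot be told apart.

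**Figure D5:**
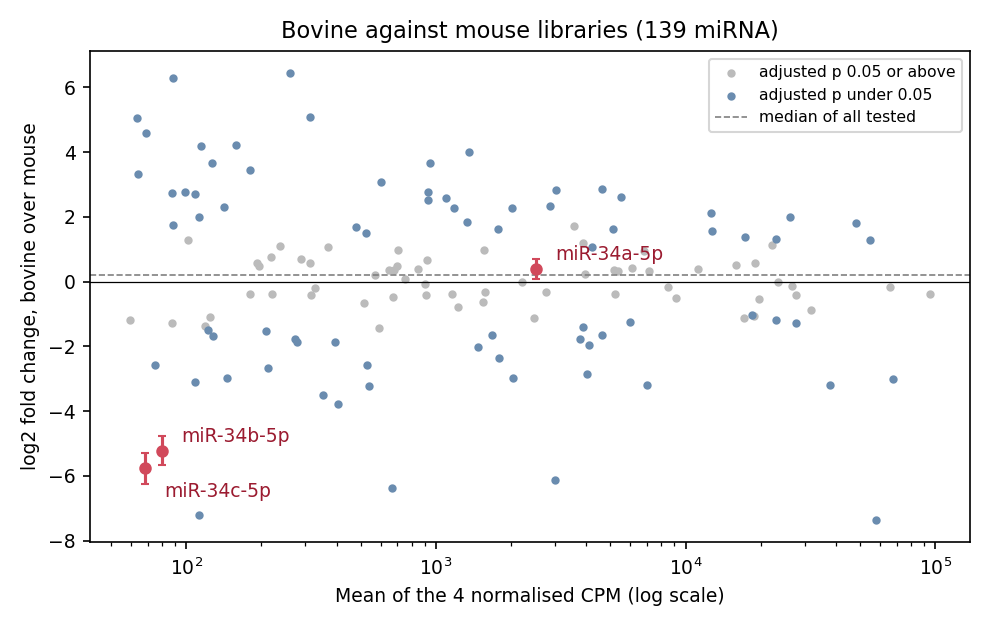
log2 fold change of bovine over mouse (vertical axis) against the mean of the 4 normalised CPM (log axis) for the 139 matched miRNA tested, with the called miRNA in blue, the 3 tested family members in red with bars of 1 SE, and the median as a dashed line. miR-34b-5p (-5.23) and miR-34c-5p (-5.77) lie together at the lower left and miR-34a-5p (0.40) lies close to the median of 0.21.

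The 5 miRNA whose levels were most like those of miR-34a-5p were sought over the 4 mouse and AGO2 libraries, by the root mean square difference of their log2 CPM, each centred on its own mean. They were miR-31-5p at 0.37, miR-7a-5p at 0.41, let-7d-5p at 0.44, miR-185-5p at 0.51 and let-7i-5p at 0.57, where the median of all tested miRNA was 1.83. Their log2 fold changes of AGO2 over mouse lay between -3.25 (let-7d-5p) and -2.34 (let-7i-5p), beside -3.34 for miR-34a-5p. These miRNA were picked by this likeness, over 4 libraries that share 2 conditions.

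Of 10 other miRNA known to respond to p53, in transcription or in processing, 9 were tested for AGO2 over mouse. Of these, miR-141-3p rose by 1.34 ± 0.37 (edgeR adjusted p = 0.00976), miR-200c-3p fell by 1.71 ± 0.57 (edgeR adjusted p = 0.0318), and 7 were not called. Both belong to the miR-200 group of epithelial miRNA. The median log2 fold change of the 9 was -0.79, against -0.12 over all 299 miRNA, of which 27.8% were called in either direction. In bovine over mouse 6 of the 10 were tested, of which miR-107-3p fell by 1.78 ± 0.39 (edgeR adjusted p = 0.0113) and 5 were not called. The median there was -0.29, against 0.21 over all 139 miRNA, of which 55.4% were called in either direction. Rows were matched by identical name, so miR-145a-5p, listed in bovine as miR-145, is left out of this median. Its level was 6434 and 6064 RPM in bovine and 2289 and 1772 RPM in mouse, a difference that was not tested.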

How the data were processed

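Small RNA was sequenced in 6 libraries, 2 each of mouse mammary gland, mouse AGO2 precipitate and bovine mammary gland. The deposited counts were made by the authors, who trimmed poly-A, sized the reads, mapped them to GRCm38 or UMD3.1 and counted them with the miRDeep2 quantifier on miRBase and predicted precursors. The normalised columns and the mouse list of predictions were not used. The deposited score of a predicted bovine precursor is the authors' miRDeep2 score, of which 1 row was read. No bovine annotation was used.

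RPM were computed over the counts of each library, with exact Poisson and Clopper-Pearson intervals at 95%. The tests used edgeR (version 4.0.16, under R 4.3.3; TMM, quasi-likelihood F test, Benjamini-Hochberg over all miRNA of the comparison, adjusted p under 0.05), and the SE was taken as the fold change over the square root of F. AGO2 over mouse took miRNA that reached 176 counts in any of the 4 libraries. Bovine over mouse took rows of the same name and arm with at least 100 RPM. The log2 CPM used to seek miRNA like miR-34a-5p were computed with a prior count of 2. Arms and miRNA of 1 seed were compared with diffSpliceDGE. The procedures were tested on simulated data. Hairpins came from RefSeq and neighbouring genes from GENCODE, both on GRCm38. Every row of the family was accounted for, and values were given for those with at least 10 counts in a library. Outside the family, the 5 miRNA most like miR-34a-5p, the p53 list and any other row of at least 10 counts with its seed were to be named, and no row met the last rule. The members and lists were chosen with earlier results of these data known. Alternatives were DESeq2 1.42.0, edgeR with the size factors of DESeq2 or with totals alone, other filters, a seed of other length, TMM-scaled CPM and each library left out. Tables and plots were made in Python 3.11.15 (NumPy 2.4.6, pandas 2.3.3, matplotlib 3.10.9, SciPy 1.17.1). With 2 libraries against 2, no permutation of single values can reach p under 0.05, and none was run.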

Additional observations from a re-analysis of the deposited data

Results flagged for a closer look

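Rows of the bovine list that the comparisons did not use held reads of the family above the 3 counts that a count of 0 allows. The 3p arm of the bovine mir-34a hairpin is listed under its human name, hsa-miR-34a-3p, and had 4 counts in bovine sample 1 and 6 in sample 2, which were 0.0162% (95% exact binomial interval 0.00441 to 0.0414) and 0.0226% (0.00829 to 0.0492) of the hairpin's counts. In the mouse miRNome the share was 0.0271% and 0.0494%. The 3p arm of bovine mir-34c, under hsa-miR-34c-3p, had 2 and 0 counts and did not pass the limit.

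A predicted bovine miRNA, bta-X_39471, had 5 counts in bovine sample 1 and 3 in sample 2. It was the only other row of either list with the seed of the family, and its first 16 of 19 bases were those of miR-34a-5p. Its hairpin of 69 nt was placed at chrX:30267722-30267790 on the plus strand of UMD3.1 with a miRDeep2 score of 0.2, and the row holds the 3p arm.
bta-X_39471: tGGCAGTGtcttagcttga
With so few reads no level was compared.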

How the results depend on the processing

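The calls of miR-34a-5p in AGO2 and of miR-34b-5p and miR-34c-5p in bovine held in each alternative run (miR-34c-5p in bovine dropped below the filter without mouse sample 1), as did the lack of a call for miR-34b-5p in AGO2. Their log2 fold changes ranged from -3.66 to -2.77, from -5.71 to -4.94, from -6.24 to -5.49 and from -1.20 to -0.51. miR-34c-5p in AGO2 ranged from -5.90 to -3.21 and lost its call without mouse sample 1. Scalings moved the median of all miRNA from -0.26 (library totals alone) to -0.01 (DESeq2 size factors) in AGO2 over mouse and from 0.03 to 0.50 in bovine over mouse.

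The number of miRNA called was 83 in AGO2 over mouse and 52 to 85 with a library left out, and 77 in bovine over mouse, 48 to 108 with a library left out and 124 with no filter. Hairpins with unequal arms numbered 29, and 7 to 82 with a library left out. miRNA that differed from others of their seed numbered 2, and 1 to 4 with a library left out or 1 with at least 10 counts in a library. miR-34a-5p in bovine reversed to -0.092 with no filter, and miR-34c-5p against its seed ranged from -3.38 to 0.057 with a library left out. The bovine mean of miR-34a-5p was 2320 as CPM over TMM-scaled totals. The cause of these changes was not tested. No paired analysis was possible because the libraries of different groups share no number or animal in the labels. The depth limits the 3p miRNA of mir-34a, mir-34b and mir-34c, which rest on 4 to 146 counts, and miR-34c-5p in AGO2, on 6 and 41.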
